A study of Chlorocebus sabaeus with 18 samples.

Results

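The 3'-most bin of a gene is the stretch of exon sequence nearest the end of its RNA for which reads were still found. For each gene, exons had been cut into non-overlapping bins. The bin lying farthest downstream was taken among those with a normalised value of 10 or more in at least 3 libraries, in genes with at least 3 such bins that did not overlap another gene on the same strand. This gave 10537 bins, 1 per gene, out of 19997 genes or groups of overlapping genes and 431444 bins in all. Of the 18092 single genes, 6239 had no bin above the minimum, 766 had 1 and 550 had 2, and the 1905 groups of overlapping genes were left out. The lowest bin taken had a third-highest value of 10.06, and the highest outermost bin left out had one of 9.87.

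The end of an RNA is set by cleavage and polyadenylation. Many genes carry several polyadenylation sites, so that a cell can make RNAs with a longer or shorter last exon, and splicing can also join a gene to a different last exon. TRA2A is a splicing activator of the SR-related family that binds purine-rich exon sequences. The CGG repeat of the FMR1 leader, when expanded to premutation length, is linked to the tremor and ataxia syndrome FXTAS, and its RNA gathers RNA-binding proteins.

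All libraries were total RNA, depleted of ribosomal RNA, from COS-7, a line of green monkey kidney cells that is fibroblast-like and carries the SV40 large T antigen. CTL was the control COS-7 culture, with no transfection named. CGG cells received the FMR1 leader with 60 CGG repeats, TRA_OE cells overexpressed TRA2A (the titles read GFP_TRA), siTRA cells had TRA2A knocked down, and CGG_siTRA cells had both the repeat and the knockdown. Each of these 5 groups had 3 libraries, called a, b and c here. A sixth group, CGG_TRA, has 3 samples and was not analysed here for bin shares. No group with an empty vector or a control siRNA is named. Every comparison with CTL therefore also holds whatever transfection itself did. The comparisons of a knockdown group with CGG or TRA_OE also hold whatever delivery of an siRNA did. CGG_siTRA against siTRA and TRA_OE against siTRA also hold whatever delivery of the repeat or of TRA2A did. In each case these cannot be told apart. The titles of 2 CGG_siTRA samples name rounds, the first and the third, without saying of what. The count columns do not carry this, and its part in the results was not tested. RNA came from whole cultures, so a small change in every cell and a large change in some cells cannot be told apart either. The labels do not say whether libraries of a group came from separate cultures, and the p-values measure the spread between these libraries.

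Counts summed over bins were 123599617 to 207475255 per library, and siTRA library b had the lowest sum. A read can count in more than 1 bin, so these sums are not numbers of reads sequenced. Reads of monkey RNA had been aligned to the human genome, so positions are on GRCh38. The gene IDs could not be paired with names, and bins are therefore named by chromosome, position and width. The files do not say which bins are untranslated sequence, and no reference sequence of this build was used here.

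The 3'-most bins were mostly long and held a small part of their gene's reads. Their median width was 713 bases, with quartiles of 194 and 1929 and a range from 1 to 28198. The share of a gene's summed bin values that fell in its 3'-most bin, averaged over the 15 libraries, had a median of 5.11%, with quartiles of 1.10% and 14.5%. It was over 50% in 377 genes, up to 97.5%, and under 1% in 2531. In 9178 genes (87.1%) the bin's share of reads was below its share of the width of the bins above the minimum, whose median was 24.1%. The median log2 ratio of the 2 shares was -1.56. A read can count in more than 1 bin, and other bins of like width were not compared. Whether a low ratio is particular to the ends of genes was therefore not tested.

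The bin was the outermost annotated bin of its gene in 5657 cases (53.7%). In the other 4880 genes, further bins lay beyond it below the minimum. It touched the next bin upstream in 7258 genes (68.9%). In 3279 genes it lay apart from it, at a median distance of 1257 bases. A bin of a gene on the opposite strand overlapped 1041 of the members, and whether the counting used strand is not given in the sources used here. The group mean was 10 or more in every group for 8814 bins and under 10 in some group for 1723.

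The gene taken as TRA2A, ENSG00000164548.10, was the single gene at or past 2-fold up in TRA_OE and 2-fold down in siTRA as well as CGG_siTRA. The files give it no name. Its summed bin values were 17143, 17234 and 16913 in CTL and 17032, 15675 and 16050 in CGG. They were 204942, 187106 and 221793 in TRA_OE. They were 3709, 4916 and 3117 in siTRA and 4020, 4396 and 4408 in CGG_siTRA. The gene was chosen by these directions, so they are no separate check of the labels. In siTRA, library b had the highest remaining level of its group.

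The 3'-most bin of TRA2A (chromosome 7, 23504784 to 23505248, minus strand, 465 bases) was left behind when the gene rose. Its share of the gene sum was 2.65%, 3.19% and 3.17% in CTL and 0.254%, 0.255% and 0.281% in TRA_OE. The groups lay far apart. The normalised value of the bin itself was 513 ± 51.5 in CTL and 540 ± 74.6 in TRA_OE (SD, n = 3), so the added TRA2A reads lay in other bins of the gene. The share of the next bin upstream was also lower, 0.0355% ± 0.0108 in TRA_OE and 0.340% ± 0.127 in CTL. The log2 change of relative use was -3.51 ± 0.18 (SE), with an adjusted p of 4.79e-49 by the quasi-likelihood test of edgeR after Benjamini-Hochberg adjustment, and the call held in all 15 fits that each left out 1 library.

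In the knockdown the bin fell with its gene. Its value was 145 ± 54.5 in siTRA and 122 ± 22.2 in CGG_siTRA, while its share was 3.55%, 4.16% and 3.13% in siTRA and 2.89%, 3.33% and 2.34% in CGG_siTRA, ranges that both overlapped CTL. Neither share passed the test against CTL (log2 change 0.27 ± 0.19, adjusted p = 0.963, and -0.08 ± 0.19, adjusted p = 1, edgeR). CGG was also not called against CTL (-0.05 ± 0.17).

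Across all 10537 genes, the weight of the 3' end was close to 5% in every group, and 1 library stood apart. The median share of the 3'-most bin was 5.0%, 5.09% and 5.09% in CTL and 4.91%, 4.76% and 4.84% in CGG. It was 4.82%, 4.71% and 5.02% in TRA_OE and 4.91%, 5.0% and 4.68% in CGG_siTRA. In siTRA it was 5.02%, 5.82% and 4.92%. The 3 CGG libraries lay below the 3 CTL libraries, and siTRA library b lay above all other libraries. The group means were 5.06% ± 0.0526 in CTL, 4.84% ± 0.0744 in CGG and 4.85% ± 0.158 in TRA_OE (SD, n = 3). They were 4.86% ± 0.167 in CGG_siTRA and 5.25% ± 0.494 in siTRA.

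**Figure D1:**
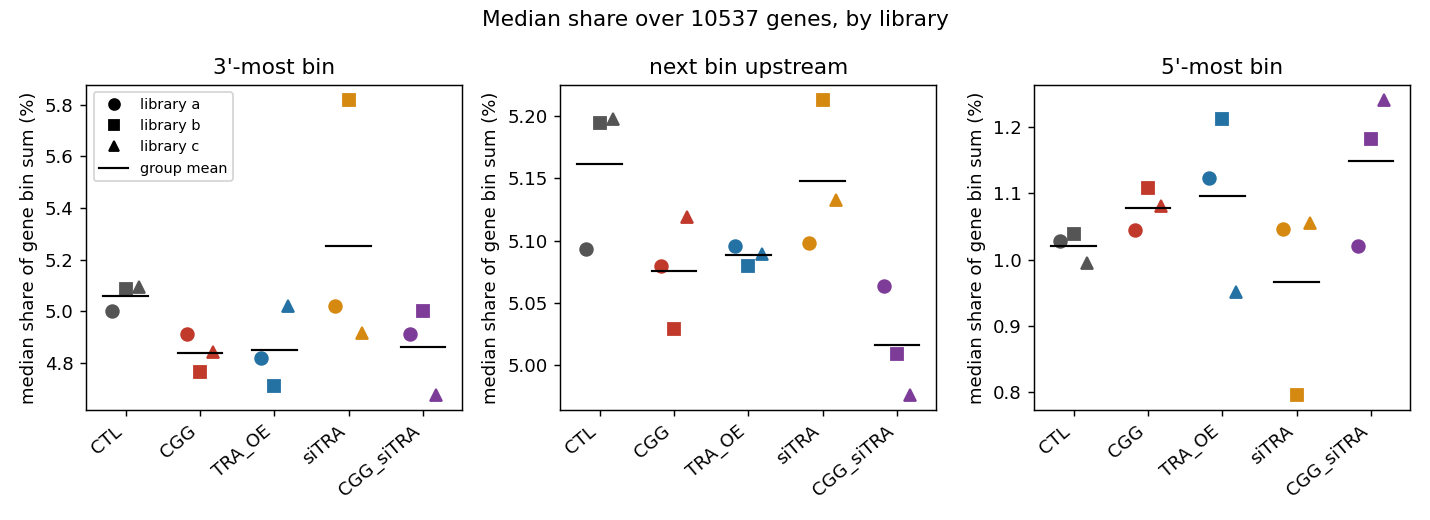
Median share of the gene's bin sum over 10537 genes, in %, for the 3'-most bin, the bin just upstream of it and the 5'-most bin. Each point is 1 library, the line is the group mean, and the 3 axes have different ranges that do not start at 0. siTRA library b is highest for the 3'-most bin (5.82%) and lowest for the 5'-most (0.796%).

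A permutation test over the 15 library medians, with 100000 resamples, placed 39.1% of the sum of squares between the 5 groups (p = 0.198). When 1 library was left out, only the fit without siTRA library c fell under 0.05, at 55.7% (permutation p = 0.0272). Without siTRA library b it was 45.6% (permutation p = 0.202). Over all fits that left out a library other than siTRA c, the permutation p ran from 0.115 to 0.320. The difference of the medians between CGG and CTL was -0.22 percentage points, with p = 0.1 by a two-sided exact permutation test, the smallest value that 3 against 3 can give, and 0.35 after Benjamini-Hochberg adjustment over 7 comparisons. The other 6 comparisons gave exact permutation p-values from 0.2 to 1. The siTRA difference from CTL was 0.19 points and became -0.09 points without siTRA library b.

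The bin just upstream of the member was steadier, with library medians between 4.98% and 5.21%. The 5'-most bins of the same genes had medians of 0.995% to 1.04% in CTL, 1.04% to 1.11% in CGG, 0.952% to 1.21% in TRA_OE and 1.02% to 1.24% in CGG_siTRA. In siTRA they were 1.05%, 0.796% and 1.06%. The library with the heaviest 3' ends thus also had the lightest 5' ends.

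siTRA library b had the highest share of its group in 68.5% of the members. Its excess over libraries a and c was larger in wider bins. The median log2 ratio was 0.17 for the 2687 bins under 200 bases, 0.22 for the 3436 bins of 200 to under 1000 bases and 0.30 for the 4414 bins of 1000 bases or more. It was the highest of its group for 52.9%, 63.0% and 82.1% of bins in these classes. Among bins under 200 bases its median share, 0.731%, was below that of siTRA library a (0.735%) and CTL library c (0.734%). The median coefficient of variation of the share between libraries, over the 5198 members with a mean value of 100 or more, was 4.44% in CTL, 4.75% in CGG, 6.16% in TRA_OE, 6.89% in CGG_siTRA and 12.7% in siTRA. Libraries a and c of siTRA alone gave 3.94%. The part of RNA quality in this was not tested. Counts that rest on siTRA library b are given below with and without it.

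**Figure D2:**
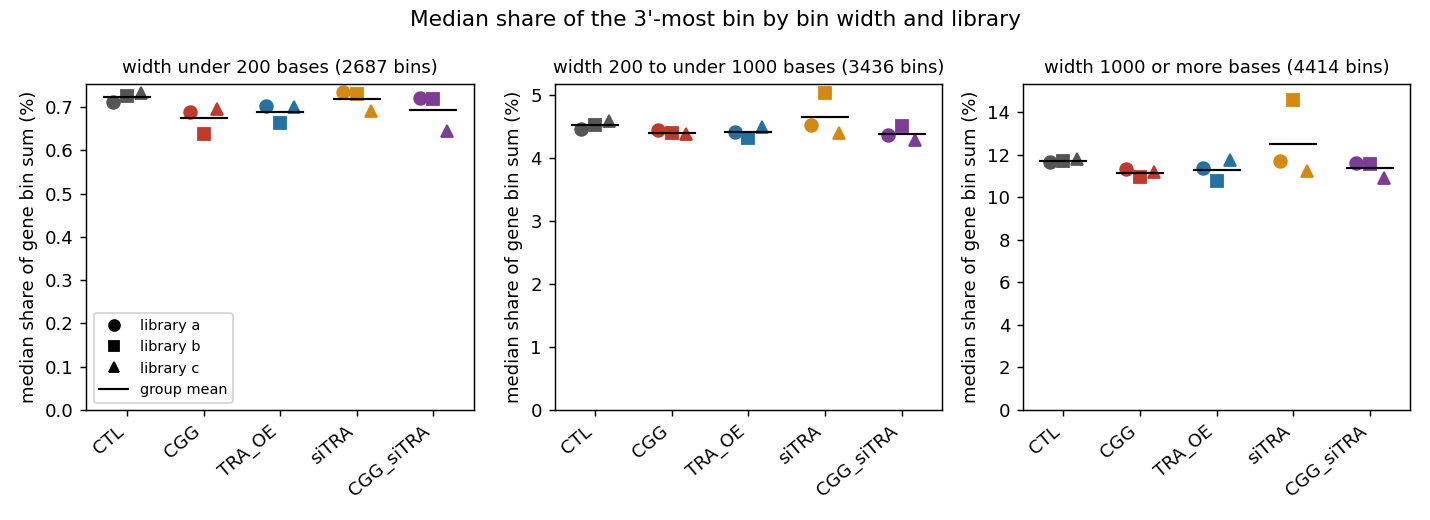
Median share of the gene's bin sum, in %, of 3'-most bins in 3 width classes, by group. Each point is 1 library and the line is the group mean. siTRA library b stands at 14.6% among bins of 1000 bases or more, where the other 14 libraries lie between 10.8% and 11.8%.

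A small fraction of the 3'-most bins passed the test of relative use in any comparison. The test asks whether a bin's log2 change differs from that of the other bins of its gene, and it was adjusted over all 265486 bins tested. Of the 10537 members, 125 (1.19%) passed in at least 1 of 7 comparisons and 14 (0.133%) in 3 or more, against 1.34% and 0.234% of all bins tested. The counts follow for all 15 libraries first and then without siTRA library b.

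CGG against CTL called 3 members higher and 5 lower (0.0285% and 0.0475% of members). Of all bins tested, 0.148% and 0.103% were called higher and lower. TRA_OE against CTL called 2 higher and 13 lower (0.019% and 0.123% of members, all bins 0.185% and 0.183%). CGG_siTRA against CTL called 8 higher and 22 lower (0.0759% and 0.209% of members, all bins 0.434% and 0.0964%). In these 3 comparisons, which share the CTL libraries, more members were lower than higher. The share of members called lower was below that of all bins in CGG and TRA_OE and above it in CGG_siTRA. The median log2 change over all members was -0.04, -0.04 and -0.03, against 0.00 for all bins tested in each of them. The 5'-most bins of the same genes went the other way, with 25, 72 and 163 called higher and 1, 7 and 2 lower. In siTRA against CTL the 5'-most bins had 39 called higher and 19 lower, with more higher than lower as among the 3'-most bins. Their median log2 change there was -0.03, against 0.06 for the 3'-most bins. Without siTRA library b, 77 of the 5'-most bins were called higher and 10 lower.

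siTRA against CTL called 37 members higher and 13 lower (all bins 0.322% and 0.186%). TRA_OE against siTRA called 4 higher and 57 lower (0.103% and 0.293%). CGG_siTRA against CGG called 8 higher and 7 lower (0.101% and 0.0335%). CGG_siTRA against siTRA called 0 higher and 5 lower (0.0422% and 0.00942%). The 5'-most bins called in the last 3 of these were 15 higher and 6 lower, 5 and 0, and 17 and 0. As shares of the 10537 members the calls of 3'-most bins, in either direction, were 0.0759%, 0.142%, 0.285%, 0.475%, 0.579%, 0.142% and 0.0475%, in the order in which the 7 comparisons were given.

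Without siTRA library b the direction in siTRA turned. siTRA against CTL then called 9 higher and 30 lower (0.552% of all bins in either direction), and 8 of the 37 higher and 11 of the 13 lower calls were kept. In 36 of the 37 bins called higher, siTRA library b had the highest share of all 15 libraries. The 57 lower calls of TRA_OE against siTRA became 11, of which 10 were kept, beside 4 higher (all bins 0.217%). In 55 of the 57, siTRA library b was the highest of all. How often it was highest of all 15 libraries over all members is not given here. Within its own group it was highest in 68.5% of them. CGG_siTRA against siTRA called 0 members by edgeR (all bins 0.000753%), with 312 members at an unadjusted p under 0.05 (2.96%, against 3.46% of all bins). On all libraries limma called 253 members (2.40%), against 1.73% of all bins.

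The other comparisons gained calls when that library was left out of the shared estimate of spread. CGG against CTL then called 7 higher and 24 lower (all bins 0.536%). TRA_OE against CTL called 4 higher and 33 lower (0.743%), CGG_siTRA against CTL 22 higher and 51 lower (1.09%) and CGG_siTRA against CGG 28 higher and 15 lower (0.344%). Every call made with all 15 libraries in these 4 comparisons was kept. Without siTRA library b, all 4 comparisons with CTL had more members lower than higher. In the order CGG, TRA_OE, siTRA and CGG_siTRA, members called lower were 0.228%, 0.313%, 0.285% and 0.484%. All bins called lower were 0.243%, 0.36%, 0.194% and 0.223%. The 5'-most bins called were then 71 higher and 5 lower, 159 and 12, 77 and 10, and 327 and 7.

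**Figure D3:**
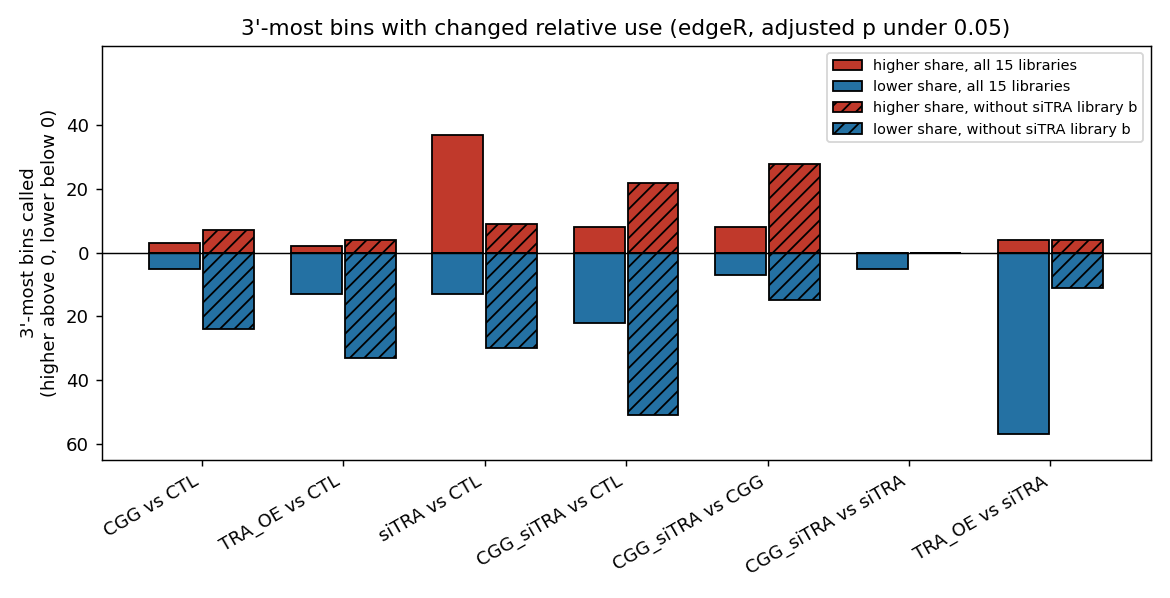
Number of 3'-most bins called by edgeR (adjusted p under 0.05), drawn upwards from 0 for a higher share and downwards for a lower share in the first-named group. Plain bars are fits of all 15 libraries and hatched bars fits without siTRA library b: in siTRA vs CTL the higher calls go from 37 to 9, and in TRA_OE vs siTRA the lower calls from 57 to 11.

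These counts also moved with other libraries. In CGG against CTL they ran from 2 (without CTL library b) to 31 (without siTRA library b), with 4 to 5 without CTL c, CGG b or CGG c, and in TRA_OE against CTL from 5 (without TRA_OE library b) to 37 (without siTRA library b), with 6 to 7 without CTL a or c. In CGG_siTRA against CTL they ran from 7 (without CTL library c) to 73 (without siTRA library b), with 12 to 16 without CTL a or b or CGG_siTRA b or c and 49 without CGG_siTRA a. In CGG_siTRA against CGG they ran from 4 (without CGG library a or b) to 43 (without siTRA library b), with 5 to 7 without CGG c or CGG_siTRA b. In siTRA against CTL they ran from 17 (without CTL library c) to 144 (without siTRA library c), with 18 to 20 without CTL a or b and 78 without siTRA a. In TRA_OE against siTRA they ran from 13 (without TRA_OE library b) to 255 (without siTRA library c), with 25 without TRA_OE a and 112 without siTRA a. In CGG_siTRA against siTRA they ran from 0 (without siTRA b or CGG_siTRA b) to 57 (without siTRA c), with 49 without CGG_siTRA a, 28 without siTRA a and 8 without TRA_OE c.

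Of the 125 bins called at least once, 86 (68.8%) were 1000 bases or wider, against 41.9% of all members. They touched the next bin in 109 cases (87.2%), against 68.9% of all members, and their median normalised value was 202. Their group mean was 10 or more in every group for 113 of them, and 18 overlapped a bin of another gene. In siTRA against CTL, 0.906% of bins of 1000 bases or more were called and 0.186% of those under 200. Without siTRA library b these were 0.657% and 0.112%. CGG_siTRA against CGG had the other order, with 0.136% of bins of 1000 bases or more and 0.186% of those under 200 (0.317% and 0.819% without siTRA library b). All 5 calls of CGG_siTRA against siTRA were bins under 200 bases.

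A few bins were called in the same direction in both comparisons that add the knockdown. siTRA against CTL and CGG_siTRA against CGG share no library. Of the 37 and 8 bins called higher, 2 were in both lists (5.41% and 25.0% of each), of the 13 and 7 called lower 2 were in both (15.4% and 28.6%), and 0 were called in opposite directions. Over all bins tested 51 higher bins were in both lists (5.96% and 19% of each) and 39 lower (7.91% and 43.8%), with 5 opposite. Without siTRA library b, 2 higher and 7 lower members were in both lists, with 0 opposite, and 66 higher, 62 lower and 22 opposite over all bins.

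The largest rise in percentage points of the bins named in siTRA against CTL was in a 2922-base bin on chromosome 6 (11135812 to 11138733, plus strand, gene ENSG00000224531.5). Its share was 19.4%, 20.5% and 20.03% in CTL, 18.6%, 19.1% and 20.5% in CGG and 22.0%, 18.5% and 20.1% in TRA_OE. It was 28.2%, 29.9% and 29.1% in siTRA and 29.6%, 27.8% and 25.6% in CGG_siTRA. All 6 knockdown libraries lay above all 9 others. The bin gained reads as well as share, from a normalised value of 694 ± 25.8 in CTL to 1660 ± 224 in siTRA and 1368 ± 193 in CGG_siTRA, while the next bin upstream held 28.5% ± 0.502 of the gene in CTL and 26.5% ± 0.587 in siTRA.

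The log2 change of this bin was 0.54 ± 0.10 for siTRA against CTL (adjusted p = 0.000717, edgeR quasi-likelihood with Benjamini-Hochberg adjustment), and the call held in all 15 leave-one-out fits. For CGG_siTRA against CGG it was 0.51 ± 0.10 (adjusted p = 0.00569), lost without CGG library a or b or CGG_siTRA library a or b, with an adjusted p of up to 0.160. By limma the bin was called in neither comparison (adjusted p = 0.594 and 0.181). The interaction of knockdown and repeat was -0.03 (adjusted p = 1, edgeR).

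A 1850-base bin on chromosome 1 (7767857 to 7769706, plus strand) rose in the same 2 comparisons. Its share was 3.97%, 4.10% and 4.61% in CTL, 4.16%, 3.94% and 4.23% in CGG and 3.59%, 3.59% and 3.85% in TRA_OE. It was 6.52%, 8.01% and 6.49% in siTRA and 6.29%, 6.06% and 5.18% in CGG_siTRA. The knockdown libraries again lay above all others, with siTRA library b the highest. The edgeR log2 change was 0.73 (adjusted p = 2.26e-06) in siTRA against CTL and 0.50 ± 0.12 (adjusted p = 0.0357) in CGG_siTRA against CGG, where the call was kept in 6 of 15 leave-one-out fits. The next bin upstream was also higher, at 3.59% ± 0.156 in CTL and 5.16% ± 0.404 in siTRA.

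**Figure D4:**
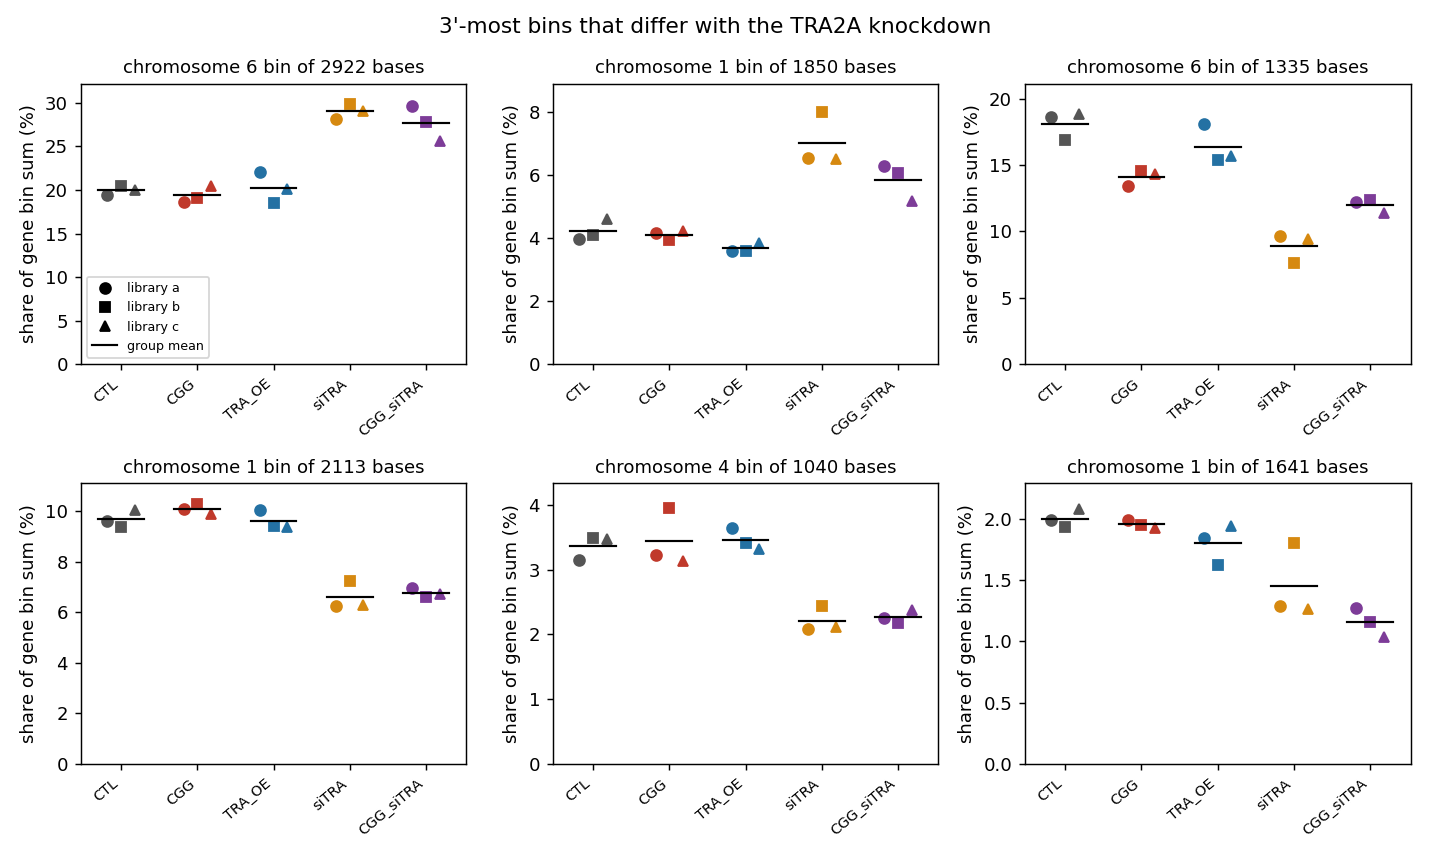
Share of the gene's bin sum, in %, of 6 3'-most bins named by chromosome and width. Each point is 1 library, the line is the group mean, and axes start at 0. In the bins of 2922 and 1850 bases all siTRA and CGG_siTRA libraries lie above the 9 others, and in those of 1335, 2113 and 1040 bases all lie below.

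A fall shared by both knockdown groups was in a 2113-base bin on chromosome 1 (31906421 to 31908533, minus strand, gene ENSG00000184007.18). Its share was 9.61%, 9.35% and 10.1% in CTL, 10.1%, 10.3% and 9.89% in CGG and 10.1%, 9.41% and 9.39% in TRA_OE. It was 6.23%, 7.24% and 6.29% in siTRA and 6.97%, 6.61% and 6.74% in CGG_siTRA. The 6 knockdown libraries did not overlap the 9 others. The gene as a whole was also lower, with a summed value of 55791 ± 1842 in CTL, 33355 ± 5005 in siTRA and 28578 ± 1958 in CGG_siTRA, and the bin fell further, from 5397 ± 295 to 2216 ± 533 and 1938 ± 182.

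The log2 change of relative use of this bin was -0.54 ± 0.12 in siTRA against CTL (adjusted p = 0.00218, edgeR), lost only without CTL library c (0.0593). In CGG_siTRA against CGG it was -0.57 ± 0.12 (adjusted p = 0.00308), lost without CGG library b or CGG_siTRA library b (up to 0.137). TRA_OE against siTRA gave 0.53 ± 0.12 (adjusted p = 0.0037, edgeR), lost without TRA_OE library a (0.0877). The difference between TRA_OE and CTL, -0.01, was not called.

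A 1335-base bin on chromosome 6 (30562389 to 30563723, plus strand), which lies 264 bases from its neighbour, had the largest fall in percentage points of the bins named in siTRA. Its share was 18.6%, 16.9% and 18.9% in CTL, 18.1%, 15.4% and 15.7% in TRA_OE and 13.4%, 14.5% and 14.3% in CGG. It was 9.64%, 7.60% and 9.43% in siTRA and 12.2%, 12.4% and 11.4% in CGG_siTRA. Here CGG lay between the CTL and the knockdown libraries. The log2 change was -1.0 ± 0.14 in siTRA against CTL (adjusted p = 2.92e-07, edgeR), held in all 15 leave-one-out fits, and -0.59 ± 0.14 in CGG_siTRA against CTL (adjusted p = 0.0196), held in 10. CGG against CTL (-0.36, adjusted p = 0.795) and CGG_siTRA against CGG (-0.23, adjusted p = 1) were not called. The interaction, 0.77, was not called either (adjusted p = 0.186, edgeR).

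A 1641-base bin on chromosome 1 (23964804 to 23966444, minus strand) held 1.99%, 1.93% and 2.08% of its gene in CTL and 1.99%, 1.95% and 1.93% in CGG. It held 1.27%, 1.16% and 1.04% in CGG_siTRA. Its log2 change against CGG was -0.76 ± 0.14 (adjusted p = 0.000241, edgeR), held in all 15 leave-one-out fits. In siTRA it held 1.29%, 1.80% and 1.26%, with library b nearest CTL, and was not called against CTL (adjusted p = 0.0749, edgeR), but was called without library b (0.00046).

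A 1040-base bin on chromosome 4 (78910838 to 78911877, minus strand), which overlaps a bin of another gene on the opposite strand, held 3.15% to 3.49% in CTL, 3.14% to 3.96% in CGG and 3.31% to 3.65% in TRA_OE. It held 2.09% to 2.44% in siTRA and 2.17% to 2.38% in CGG_siTRA, with no overlap between these and the first 3 groups. It was called in siTRA against CTL (log2 change -0.61, adjusted p = 0.0342) and in TRA_OE against siTRA (0.65 ± 0.13, adjusted p = 0.0213, edgeR), where leaving out TRA_OE library a or b or siTRA library a or c ended the call (up to 0.226). CGG_siTRA was not called against CTL (adjusted p = 0.0655) or CGG (0.123), but was without siTRA library b (0.00956 and 0.0169, edgeR). A 923-base bin on chromosome 15 (64143309 to 64144231, plus strand) rose in TRA_OE against siTRA from 1.37% ± 0.232 to 1.89% ± 0.184 (SD, n = 3), with a log2 change of 0.46 ± 0.10 (adjusted p = 0.0347, edgeR) kept in 4 of 15 leave-one-out fits.

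A second set of bins separated CTL from the 4 other groups. These 4 comparisons share the CTL libraries, and their values stand side by side without a test of overlap. A 3356-base bin on chromosome 15 (65888636 to 65891991, plus strand) held 4.0%, 3.93% and 4.51% in CTL. It held 3.05%, 2.96% and 2.88% in CGG, 2.77%, 2.61% and 3.00% in TRA_OE, 2.93%, 3.48% and 2.90% in siTRA and 3.05%, 2.97% and 3.05% in CGG_siTRA. The 3 CTL libraries lay above the 12 others, which overlapped each other.

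Against CTL the log2 change of this bin was -0.48 ± 0.08 in CGG (adjusted p = 0.00618), -0.57 in TRA_OE (0.000202), -0.42 in siTRA (0.0253) and -0.45 in CGG_siTRA (0.00943), all by edgeR with Benjamini-Hochberg adjusted p. The call in CGG was lost without CTL library c or CGG library b or c (adjusted p up to 0.287). The gene sums differed by less than 1 SD of CGG, at 32005 ± 518 in CTL and 32940 ± 1037 in CGG. The next bin upstream was lower too, at 2.75% ± 0.322 in CTL, 1.83% ± 0.189 in CGG and 1.91% ± 0.129 in TRA_OE.

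The widest named bin, 21598 bases on chromosome 12 (104996027 to 105017624, plus strand), held 7.08%, 4.71% and 6.33% of its gene in CTL. It held 4.16%, 3.89% and 3.96% in CGG, 3.52%, 2.38% and 3.31% in TRA_OE, 3.57%, 3.93% and 3.50% in siTRA and 3.78%, 4.62% and 3.44% in CGG_siTRA. All 3 CTL libraries were above the rest, with CTL library b and CGG_siTRA library b close together. It was called in TRA_OE (log2 change -0.97 ± 0.19, adjusted p = 0.00152, edgeR), lost without CTL library a or TRA_OE library b (up to 0.172). In the other 3 comparisons with CTL its log2 change was -0.58, -0.71 and -0.61, with adjusted p of 0.378, 0.0613 and 0.187 for CGG, siTRA and CGG_siTRA. Without siTRA library b all 3 were called (0.0278, 0.00459 and 0.00943, edgeR).

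A 3680-base bin on chromosome 4 (31143126 to 31146805, plus strand) was highest in CTL and lowest in CGG_siTRA. It held 6.32%, 5.93% and 7.60% in CTL and 5.48%, 4.64% and 5.36% in CGG. It held 4.54%, 4.41% and 4.36% in TRA_OE, 4.35%, 4.37% and 4.59% in siTRA and 3.82%, 3.77% and 2.91% in CGG_siTRA. CTL and CGG_siTRA overlapped no other group, while TRA_OE and siTRA overlapped. The log2 change from CTL was -0.93 ± 0.14 in CGG_siTRA (adjusted p = 4.38e-06), held in all 15 leave-one-out fits. It was -0.58 ± 0.13 in TRA_OE (0.0264, called in 10 of the fits) and -0.58 ± 0.14 in siTRA (0.0270, called in 12), and -0.35 in CGG (0.891), by edgeR.

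**Figure D5:**
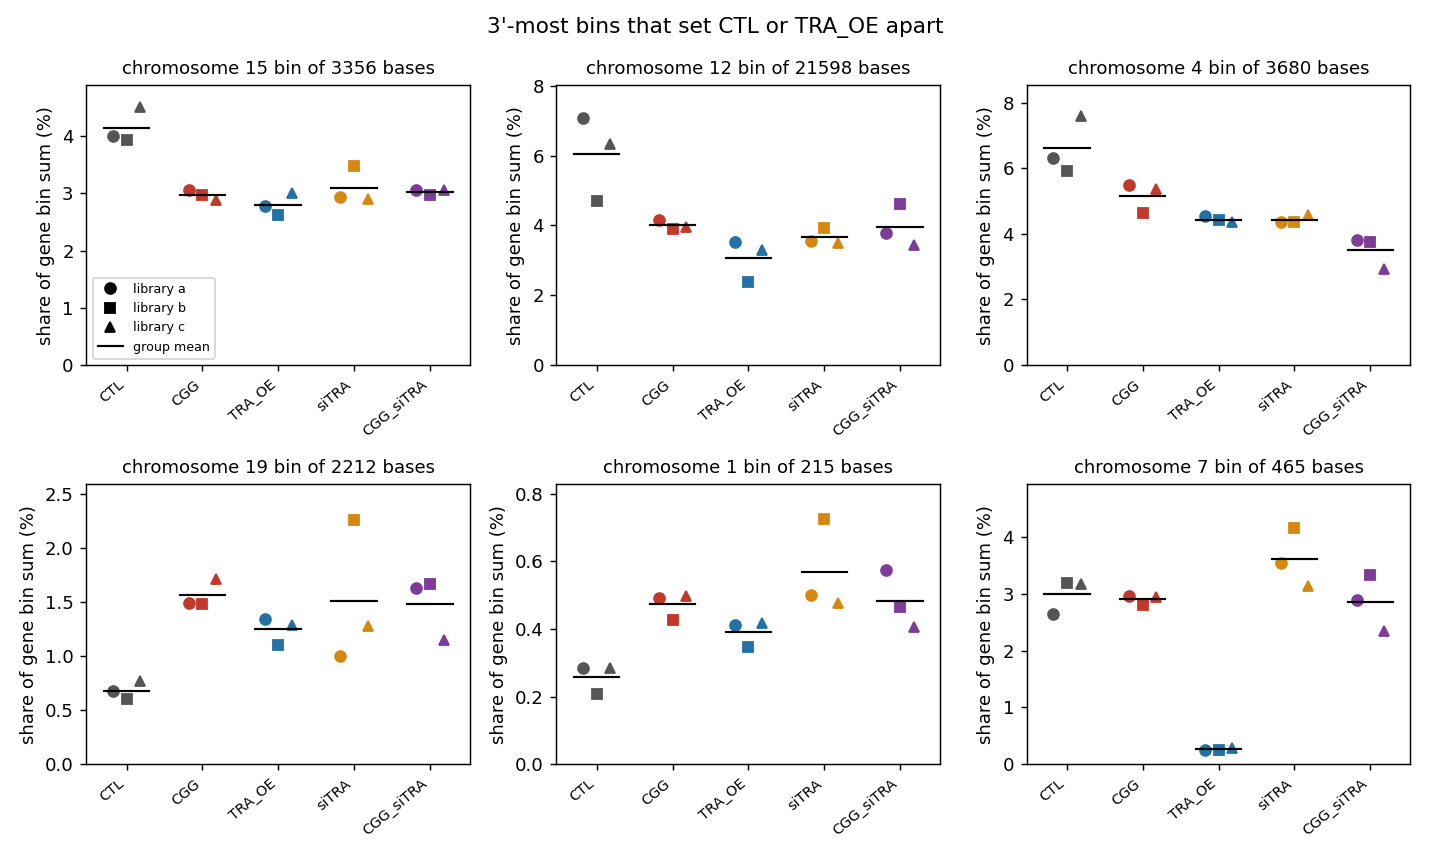
Share of the gene's bin sum, in %, of 5 3'-most bins in which CTL lies apart from the other groups, and of the 465-base bin of TRA2A. Each point is 1 library, the line is the group mean, and axes start at 0. In the TRA2A bin the 3 TRA_OE libraries lie between 0.254% and 0.281%, below all others.

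Some bins of low share were higher in all 4 other groups than in CTL. A 215-base bin on chromosome 1 (77944055 to 77944269, minus strand), 1236 bases from its neighbour, held 0.286%, 0.207% and 0.284% in CTL and 0.491%, 0.427% and 0.499% in CGG. It held 0.413%, 0.348% and 0.416% in TRA_OE, 0.501%, 0.725% and 0.476% in siTRA and 0.576%, 0.464% and 0.407% in CGG_siTRA. CTL lay below all 12 others. Against CTL it was called in CGG (log2 change 0.88 ± 0.17, adjusted p = 0.000552), siTRA (1.12, 1.94e-07) and CGG_siTRA (0.90, 0.000182) but not in TRA_OE (0.60, adjusted p = 0.083, and 0.0213 without siTRA library b), by edgeR. Leaving out CTL library b ended the call in CGG (0.0937).

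The next bins of this kind overlap a gene on the opposite strand. A 2212-base bin on chromosome 19 (45407334 to 45409545, minus strand) held 0.678% ± 0.0829 in CTL, 1.56% ± 0.129 in CGG and 1.48% ± 0.290 in CGG_siTRA, with siTRA at 0.998%, 2.26% and 1.28% (SD, n = 3). Its log2 change against CTL was 1.21 ± 0.24 in CGG (adjusted p = 0.0014, edgeR), lost without CTL library b (0.0667). Its call in siTRA (1.10, adjusted p = 0.00629) was lost without siTRA library b (0.173, edgeR). A 2486-base bin on chromosome 1 (244840638 to 244843123, minus strand) held a very small share, 0.0258% ± 0.00418 in CTL, 0.0735% ± 0.0125 in CGG, 0.0598% ± 0.0130 in TRA_OE and 0.0856% ± 0.0145 in CGG_siTRA, and 0.0814%, 0.138% and 0.0689% in siTRA. Its normalised value was 49.8 ± 7.57 in CTL and 136 ± 22.3 in CGG, and it was called higher in all 4 comparisons with CTL (adjusted p from 1.25e-10 to 0.00107, edgeR). The call in TRA_OE was lost without CTL library b (0.0559).

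CGG cells had lower shares of 3 further bins of small share than CTL. A 397-base bin on chromosome 14 (91457611 to 91458007, minus strand) held 1.49%, 1.66% and 1.66% in CTL and 1.04%, 0.827% and 1.30% in CGG, a log2 change of -0.60 ± 0.15 (adjusted p = 0.0298, edgeR). A 147-base bin on chromosome 2 (135906677 to 135906823, minus strand) held 0.908%, 1.18% and 1.13% in CTL and 0.800%, 0.642% and 0.771% in CGG, a log2 change of -0.54 ± 0.12 (adjusted p = 0.0124, edgeR). A 76-base bin on chromosome 1 (215621732 to 215621807, plus strand) went from 0.659% ± 0.191 to 0.356% ± 0.0219 (log2 change -0.90 ± 0.18, adjusted p = 0.00187, edgeR). In each the CGG libraries lay below the CTL libraries, a condition for naming, while the CGG_siTRA libraries spread over both ranges. The chromosome 1 bin was also called lower in siTRA than in CTL (-0.68, adjusted p = 0.0464, edgeR). The chromosome 2 bin was also called higher in CGG_siTRA than in CGG (0.52, adjusted p = 0.0402, edgeR). The first lost its call without any of 5 libraries (CTL a, b or c, CGG a or b), the second without CTL b or c or CGG b or c, and the third without CTL b or CGG c.

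With TRA2A raised, a 10964-base bin on chromosome 13 (52689946 to 52700909, plus strand) held 6.10%, 4.74% and 5.60% against 8.29%, 7.60% and 8.05% in CTL. CGG lay between, at 6.57%, 6.22% and 6.32%. The log2 change was -0.54 ± 0.09 (adjusted p = 0.000464, edgeR), lost without TRA_OE library b (0.138). A 428-base bin on chromosome 21 (17593152 to 17593579, plus strand), which lies 23051 bases beyond its neighbour, held 1.81%, 1.54% and 1.93% in TRA_OE against 1.08%, 0.856% and 0.706% in CTL. Its log2 change was 1.01 ± 0.23 (adjusted p = 0.011, edgeR), lost without CTL library b or c or TRA_OE library a (up to 0.331). The siTRA libraries, at 1.64%, 1.63% and 1.29%, overlapped those of TRA_OE. CGG (1.32% to 1.36%) and CGG_siTRA (1.09% to 1.46%) also lay above CTL, so the higher share was not particular to raised TRA2A.

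In siTRA, 3 more bins named for a rise were not called against CTL without library b. A 2218-base bin on chromosome 12 (132582971 to 132585188, plus strand) held 8.57%, 11.1% and 10.2% in CTL and 13.9%, 20.6% and 11.4% in siTRA. Its log2 change was 0.60 ± 0.16 (adjusted p = 0.032, edgeR), and 0.33 without library b (0.832). A 2483-base bin on chromosome 1 (156463727 to 156466209, minus strand) held 12.9% ± 0.398 in CTL and 16.2%, 21.8% and 15.8% in siTRA, and its adjusted p (edgeR) went from 0.021 to 0.338. A 4756-base bin on chromosome 1 (61458038 to 61462793, plus strand) held 13.3% ± 0.590 in CTL and 16.5%, 21.6% and 16.8% in siTRA, and its adjusted p (edgeR) went from 0.00943 to 0.170. In all 3 bins libraries a and c also lay above all CTL libraries, but bins were named only if the groups compared did not overlap. Leaving out CTL library a or b also ended each of these calls.

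A 1962-base bin on chromosome 19 (44175722 to 44177683, plus strand) fell in siTRA with library b at the upper end of its group. It held 29.4%, 25.2% and 29.96% in CTL and 19.3%, 22.3% and 18.2% in siTRA, a log2 change of -0.49 ± 0.12 (adjusted p = 0.0197, edgeR), and -0.58 without library b (0.00101). That CTL and siTRA did not overlap was a condition for naming the bin. CTL also lay above CGG (21.3% to 22.7%), TRA_OE (23.8% to 24.9%) and CGG_siTRA (18.6% to 22.6%). The lower share was thus not particular to siTRA. The call was lost without CTL library a or c or siTRA library a or c (up to 0.239).

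With both the repeat and the knockdown, the bin with the largest fall in percentage points lay in a gene with few reads. A 1071-base bin on chromosome 10 (89667181 to 89668251, minus strand), which lies 24277 bases from its neighbour, held 52.7%, 54.1% and 49.7% in CTL and 48.3%, 42.4% and 43.2% in CGG. It held 47.4%, 59.5% and 51.8% in TRA_OE, 34.5%, 48.9% and 39.7% in siTRA and 25.8%, 30.7% and 28.9% in CGG_siTRA. The CGG_siTRA libraries lay below all others. The gene sum was only 176 in CTL and 124 in CGG_siTRA, and the log2 change of -0.88 ± 0.21 (adjusted p = 0.0311, edgeR) was lost when any of the 6 libraries compared was left out (up to 0.215).

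A 3780-base bin on chromosome 3 (108043299 to 108047078, minus strand) held 16.6%, 16.3% and 16.9% in CTL and 12.2%, 12.96% and 12.1% in CGG_siTRA, with a log2 change of -0.42 ± 0.09 (adjusted p = 0.0255, edgeR). TRA_OE (13.6% to 14.1%) and CGG (14.4% to 15.4%) lay between, and siTRA (11.2% to 14.7%) lay below CTL and overlapped CGG_siTRA. A 4615-base bin on chromosome 3 (33143159 to 33147773, plus strand) held 9.46%, 9.74% and 10.02% in CTL and 12.4%, 15.2% and 11.9% in CGG_siTRA, with a log2 change of 0.43 ± 0.11 (adjusted p = 0.0363, edgeR). In this bin siTRA (11.9% to 15.7%) and CGG (11.4% to 12.2%) also lay above CTL and overlapped CGG_siTRA. TRA_OE (8.52% to 11.2%) overlapped CTL. The first call was kept in 9 of 15 leave-one-out fits and the second in 7, and leaving out any 1 CTL library ended either call.

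Several bins besides those above differed between CGG_siTRA and CGG. A 2560-base bin on chromosome 8 (61500556 to 61503115, minus strand, overlapping a gene on the opposite strand) held 2.29%, 2.04% and 1.80% in CGG and 1.32%, 1.33% and 1.08% in CGG_siTRA. Its log2 change was -0.71 ± 0.12 (adjusted p = 8.10e-05, edgeR), held in all 15 leave-one-out fits. A 275-base bin on chromosome 17 (1517718 to 1517992, minus strand, also overlapping) held 0.444%, 0.441% and 0.516% in CGG and 0.911%, 0.999% and 0.778% in CGG_siTRA. Its log2 change was 0.92 ± 0.15 (adjusted p = 9.27e-05, edgeR), held in all 15. In the first bin CTL (1.94% to 1.99%) lay with CGG, and in the second CTL (0.633% to 0.783%) lay between the 2 groups and overlapped CGG_siTRA.

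A 4100-base bin on chromosome 2 (200823239 to 200827338, plus strand) went from 1.87% ± 0.0612 in CGG to 2.54% ± 0.279 in CGG_siTRA (log2 change 0.44 ± 0.09, adjusted p = 0.0251, edgeR). The call was lost without any CGG library or CGG_siTRA library b. A 129-base bin on chromosome 3 (32525971 to 32526099, minus strand) held 1.88%, 1.76% and 1.72% in CGG and 1.22%, 1.29% and 1.08% in CGG_siTRA, with a log2 change of -0.58 ± 0.12 (adjusted p = 0.00697, edgeR), lost without CGG library a or b or CGG_siTRA library c (up to 0.160). In siTRA it held 1.44%, 2.34% and 1.55%. The difference between CGG_siTRA and siTRA, -0.56 ± 0.12 (adjusted p = 0.0295, edgeR), became -0.32 without siTRA library b (adjusted p = 1).

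The other bin named between CGG_siTRA and siTRA was also lost without that library, among others. A 185-base bin on chromosome 10 (113167494 to 113167678, plus strand) held 1.39%, 1.08% and 1.64% in CGG_siTRA and 2.05%, 3.59% and 2.30% in siTRA. Its log2 change was -0.96 ± 0.21 (adjusted p = 0.0228, edgeR) with all libraries and -0.69 (0.755) without siTRA library b. The call was also lost without CTL library b or CGG_siTRA library b. Neither of the bins named between CGG_siTRA and siTRA was called when only these groups were fitted. CTL, at 1.54%, 1.71% and 1.58%, overlapped CGG_siTRA.

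Raised and lowered TRA2A were set directly against each other in TRA_OE against siTRA. A 10286-base bin on chromosome 8 (28563982 to 28574267, plus strand) held 11.5%, 9.34% and 11.9% in TRA_OE and 16.9%, 21.6% and 15.5% in siTRA, with CTL between them at 14.3%, 12.9% and 14.6%. Its log2 change was -0.74 ± 0.11 (adjusted p = 9.52e-07, edgeR), and -0.57 without siTRA library b (0.000164). It was held in all 15 leave-one-out fits. Neither group was called against CTL (adjusted p = 0.228 for TRA_OE and 0.0818 for siTRA, edgeR), and TRA_OE was called without siTRA library b (0.0338).

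The bins already described on chromosome 6 moved here too. The 2922-base bin was lower in TRA_OE than in siTRA (log2 change -0.52 ± 0.10, adjusted p = 0.00155) and the 1335-base bin higher (0.85 ± 0.14, adjusted p = 9.73e-05, edgeR). The first call was lost without TRA_OE library b (0.0858) and the second was kept in all 15 fits. The 1850-base bin of chromosome 1 was lower in TRA_OE (log2 change -0.94, adjusted p = 4.96e-10, edgeR).

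Of the remaining bins named in this comparison, 2 were lost without siTRA library b. A 2776-base bin on chromosome 9 (111541657 to 111544432, plus strand), 7303 bases from its neighbour, held 26.1%, 20.6% and 19.8% in TRA_OE and 35.0%, 47.1% and 33.2% in siTRA, and its adjusted p (edgeR) went from 0.00488 to 0.110. A 5491-base bin on chromosome 10 (103594029 to 103599519, minus strand) held 15.1%, 12.8% and 14.3% in TRA_OE and 20.6%, 26.6% and 19.9% in siTRA, and its adjusted p (edgeR) went from 0.00709 to 0.112. In both, libraries a and c of siTRA lay above all TRA_OE libraries as well, which was a condition for naming the bins. Both calls were also lost without TRA_OE library b, and that of the 2776-base bin without TRA_OE library c.

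The authors' deposited tables give DEXSeq calls, at an adjusted p under 0.05, for 6 of the 7 comparisons. In the authors' deposited table of CGG against CTL, 34 members were higher and 264 lower, 2.83% of them against 2.0% of all bins called. In the authors' deposited table of TRA_OE against CTL, 16 were higher and 149 lower (1.57%, all bins 1.32%). The authors' deposited table of CGG_siTRA against CTL had 97 higher and 262 lower (3.43%, all bins 3.87%), and that of siTRA against CTL had 74 higher and 61 lower (1.28%, all bins 1.83%). The authors' deposited table of CGG_siTRA against CGG had 175 higher and 148 lower (3.15%, all bins 3.34%). The authors' deposited table of TRA_OE against siTRA had 11 higher and 72 lower (0.788%, all bins 0.595%). Lower calls outnumbered higher ones in the same 3 comparisons with CTL as in the edgeR fits.

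All 8 edgeR calls of CGG against CTL and all 30 of CGG_siTRA against CTL were also calls of the authors' deposited tables, with the same sign. For TRA_OE against CTL this held for 14 of 15 and for CGG_siTRA against CGG for 12 of 15. In the comparisons with siTRA, where library b enters the contrast, it held for 28 of 50 (against CTL) and 23 of 61 (against TRA_OE).

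Alternative last exons, as listed in the authors' deposited event tables, seldom met these bins. Of 635 such events in 565 member genes, 73 events in 67 genes spanned the member. In the authors' deposited tables, 1 of the 73 had p under 0.001 in TRA_OE against CTL and 0 in CGG against CTL, CGG_siTRA against siTRA, CGG_TRA against CGG and CGG_TRA against CGG_siTRA. The share of all listed events at this p is not given here. In the 3 of these comparisons that have counts, 0 of the 67 members were called by edgeR. Of all members, 0.0759% were called in CGG against CTL, 0.142% in TRA_OE against CTL and 0.0475% in CGG_siTRA against siTRA. With shares that small, 67 members are too few to show a difference.

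The difference of CGG_siTRA from CGG was also set against that of siTRA from CTL, as an interaction in the edgeR fit. It called 4 members, 2 in each direction, where 0.108% of all bins tested were called in either direction. Without siTRA library b it called 13 members (all bins 0.235%), and without CTL library b or CGG library c it called 1.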

How the data were processed

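Total RNA from 18 samples in 6 groups was sequenced, and 15 libraries in 5 groups had count columns. Per the submitters' processing notes, cutadapt 1.14, STAR 2.5.2 and DESeq2 were used with GRCh38.p10. Strand use in counting is not given in the sources used here. The deposited counts are raw reads per exon bin, per the file headers. The deposited normalised signal is that count divided by 1 factor per library, per the file headers. Dividing it by its step gave whole reads within 0.1 for 100% of values, and in every library 0 of these differed from the deposited counts. Between the deposited tables that share a library, 0 of 8329554 count cells compared differed. The authors' DEXSeq tables give a log2 fold and a Benjamini-Hochberg adjusted p-value per bin. The authors' EventPointer tables give an unadjusted p-value and a score, the change in percent spliced in, whose direction is not stated.

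Counts were tested with the exon-level quasi-likelihood test of edgeR 4.0.16 (diffSpliceDGE, TMM scaling, R 4.3.3) over 265486 bins with a normalised value of 10 or more in 3 libraries, in genes with 2 or more such bins. All 15 libraries shared 1 estimate of spread, and p-values were adjusted over all bins (threshold 0.05). The script was tested on simulated data. Shares are the bin's normalised value over the sum of its gene's bins, and a read can count in more than 1 bin. Counts summed over bins were 123599617 to 207475255 per library, which is not the number of reads sequenced. Intervals of share were not computed because the spread between libraries was used. Alternatives were DESeq2 1.42.0 size factors, the authors' factors, other filters, only the groups compared, limma 3.58.1 and leaving out each library.

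Per comparison, the 4 largest rises and 4 largest falls in percentage points were named (2 of each sign for the interaction), among called bins whose shares did not overlap and whose mean value reached 50 in the group with more reads, plus the TRA2A bin. The members and lists were chosen with earlier results of these data known. Lists of named genes were not used, since 0 of 10537 gene IDs matched the monkey RefSeq table.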

Additional observations from a re-analysis of the deposited data

Results flagged for a closer look

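The difference of CGG_siTRA from CGG differed from that of siTRA from CTL in 4 bins, of which 3 met the rule for naming, by an edgeR interaction term with Benjamini-Hochberg adjusted p. In the 2486-base bin on chromosome 1 (244840638 to 244843123), which overlaps a gene on the opposite strand, the log2 interaction was -1.68 ± 0.33 (adjusted p = 0.00175), and -1.33 (0.0455) without siTRA library b. Its share was 0.0258% ± 0.00418 in CTL and 0.0959% ± 0.0365 in siTRA, against 0.0735% ± 0.0125 in CGG and 0.0856% ± 0.0145 in CGG_siTRA (SD, n = 3).

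In the 215-base bin on chromosome 1 (77944055 to 77944269) the log2 interaction was -1.10 ± 0.23 (adjusted p = 0.00782, edgeR). It was lost without CTL library b, CGG library c or CGG_siTRA library b (up to 0.147), and was -0.90 (0.0433) without siTRA library b. In both bins CTL was the lowest of the 4 groups.

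A 12-base bin on chromosome 12 (6538360 to 6538371, plus strand), which overlaps a gene on the opposite strand, had a log2 interaction of 1.42 ± 0.33 (adjusted p = 0.0302, edgeR). Its share was 0.0266%, 0.0298% and 0.0264% in CTL and 0.0225%, 0.00834% and 0.0224% in siTRA. It was 0.0158%, 0.0147% and 0.0158% in CGG and 0.0324%, 0.0279% and 0.0274% in CGG_siTRA. The share was lower in siTRA than in CTL and higher in CGG_siTRA than in CGG, with no overlap in either. The call was kept in 5 of 15 leave-one-out fits, and without siTRA library b, the lowest of all 15 libraries, the interaction was 1.22 (0.000149).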

How the results depend on the processing

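No paired analysis was possible because the count columns do not carry the replicate numbers of the titles. The number of 3'-most bins called depended on the tool. In the order CGG, TRA_OE, siTRA and CGG_siTRA against CTL, CGG_siTRA against CGG, CGG_siTRA against siTRA and TRA_OE against siTRA, edgeR on only the groups compared called 104, 41, 17, 61, 33, 0 and 17 members, and 1.22%, 0.802%, 0.259%, 0.942%, 0.234%, 0.000377% and 0.127% of all bins. For limma with a pseudocount of 1 these were 139, 111, 308, 158, 151, 253 and 365 (1.05% to 3.46% of members), beside 1.33%, 1.29%, 2.38%, 1.38%, 1.12%, 1.73% and 2.38% of all bins. With 0.5 they were 136, 115, 322, 163, 158, 266 and 383 (up to 2.52% of all bins). The authors' deposited DEXSeq tables called 298, 165, 135, 359 and 323 in the first 5. Without a filter CGG_siTRA against siTRA called 3 (all bins 0.0208%). The interaction called 154 (limma, pseudocount 1, all bins 1.5%), 162 (0.5, all bins 1.61%) and 1 (overlapping bins left out). Other scalings and filters kept every count within 1.5 times. The cause was not tested.

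Leaving out 1 library gave 2 to 31, 5 to 37, 17 to 144, 7 to 73, 4 to 43, 0 to 57 and 13 to 255 calls in the same order, and 1 to 13 for the interaction. In CGG_siTRA against siTRA, 14 of 15 such counts moved by over 1.5 times. For the interaction the 13 came without siTRA b, 1 without CTL b or CGG c, 2 without CGG b or CGG_siTRA b, and 7 to 9 without siTRA a, siTRA c or CGG_siTRA a.

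The difference of library medians ran from -0.26 to -0.18 percentage points (CGG against CTL), -0.295 to -0.140 (TRA_OE against CTL), -0.0919 to 0.359 (siTRA against CTL, below 0 without siTRA b) and -0.266 to -0.105 (CGG_siTRA against CTL). For CGG_siTRA against CGG it ran from -0.0458 to 0.116, below 0 without CGG_siTRA b, CGG_siTRA a (-0.00185) or CGG b (-0.0152). The part of the spread between the 5 groups ran from 37.0% to 55.7%, the last with p = 0.0272 by the permutation test without siTRA c. Without any other single library the permutation p was 0.115 to 0.320. The log2 change of the TRA2A bin, not called in these comparisons, changed sign in siTRA against CTL (-0.27 in limma) and in CGG against CTL (0.0934 in limma, and -0.127 to 0.00117 over fits without 1 library, highest without CTL b). Without CGG_siTRA c it also changed sign in CGG_siTRA against CTL (-0.208 to 0.0586) and against CGG (-0.163 to 0.104).

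Of 47 named calls in 34 bins, 10 held in all 15 leave-one-out fits, 40 without siTRA b, 34 with only the groups compared and 20 in limma, and 42 of 45 with an adjusted p were called in the authors' deposited tables. With 3 libraries a group, the exact permutation test cannot give a p under 0.1. Bins of a few reads limit the shares of genes with low sums. Monkey reads on a human reference leave bins unseen where the genomes differ, which was not tested.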
